A study of Mus musculus with 3 samples.

Results

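Pericytes were taken from 3 single-cell RNA libraries of mouse bone marrow niche cells by a fixed set of limits on unique molecular identifiers (UMIs, counted RNA molecules), called the gate here. Barcodes counted as called cells from 1000 UMIs and 500 genes upwards if mitochondrial UMIs stayed under 10%. A called cell entered the gate with at least 5 UMIs of Rgs5, at least 3 UMIs of Kcnj8, Abcc9 and Higd1b together, at most 1 UMI of Myh11, and 0 UMIs of Cdh5 and Ptprc. The gate kept 76 of 16318 called cells: 70 of 7129 in the WT library, 3 of 3621 in the BMT library and 3 of 5568 in the aGVHD library. The cells were thus chosen by the measured UMIs of these 7 genes, so the levels of those genes are given as a description.

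Pericytes wrap the endothelial tube of capillaries and post-capillary vessels, share its basement membrane and help to set vessel tone and stability. With the vascular smooth muscle cells of larger vessels they form the mural cells of the vessel wall. In bone marrow they lie among perivascular stromal cells marked by Lepr and Cxcl12, which feed and retain blood stem cells.

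All 3 libraries came from CB6F1 mice, and there was 1 library per group. The WT mice were untreated females. The BMT mice were female recipients of marrow cells from B6.SJL mice (CD45.1+), given 4 hours after irradiation with 4.0 Gy, delivered 2 times, and the aGVHD mice received spleen cells of female C57BL/6 mice on top of this. Per the labels' protocols, all cells were sorted after depletion of cells stained for CD45, a lineage mix or CD71, and dead cells were removed with Calcein AM and DAPI. Both transplanted groups share the irradiation and the donor marrow. The sources used here do not give the number of mice behind a library, their age or the days from transplantation to collection.

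With 1 library per group there was no replicate check, and no test was run. Intervals are exact 95% intervals (Clopper-Pearson for shares, Poisson for levels, conditional on the summed counts for ratios of levels) and those of ratios of shares are approximate on the log scale. All of them cover counting error only, not the spread between mice. Depth was 86575425 UMIs in the WT library, 44219063 in the BMT library and 67439098 in the aGVHD library, and the median called cell had 7355, 6932 and 6978 UMIs. Pairs of libraries shared 8 to 11 called barcodes, and 0 of these belonged to a gated pericyte.

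The 70 WT cells carried 504630 UMIs, with a lowest, median and highest cell of 1213, 5499 and 42935. Rgs5, a brake on G protein signalling, was counted at 7 to 232 UMIs a cell with a median of 72.5. Abcc9, the sulfonylurea receptor subunit of the ATP-sensitive potassium channel, had a UMI in 68 cells, and Kcnj8, the pore subunit of the same channel, in 60. Higd1b, a protein of the hypoxia-inducible domain family, had a UMI in 63. All 3 genes were found together in 53 of 70 cells, a count that the limit on their sum helps to set.

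Levels below are CPM values, a gene's UMIs per 1000000 UMIs summed over the cells of a group. Rgs5 stood at 12659 CPM in the gated WT pericytes, against 4148 in the smooth muscle gate, 142 in the endothelial gate, 105 in blood cells and 168 in empty droplets (barcodes of at most 100 UMIs). Kcnj8 stood at 420 CPM in the pericytes and at 34.8 in the endothelial gate, where 11.1% of cells had a UMI against 0.862% of blood cells. Abcc9 stood at 828 CPM in the pericytes, 100.3 in the endothelial gate and 36.9 in the LepR gate. For Abcc9, 21.2% of LepR-gated cells had a UMI, against 3.02% of blood cells. Higd1b stood at 721 CPM in the pericytes and 139 in the smooth muscle gate. The median depths of the LepR, endothelial and blood cells were 6051, 4945 and 10135 UMIs, so the deeper blood cells showed the lower shares.

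Few cells lay near the limits on Rgs5 and on the summed genes. No WT cell met every other limit with 3 to 4 Rgs5 UMIs, and 3 members had 5 to 9, while 2 cells just missed with a sum of 2 for the 3 other genes and 3 members sat at a sum of 3. The Myh11 limit, which sets the border to smooth muscle, was more populated: 45 members had 0 and 25 had 1, and 37 cells that met all else had 2 to 3 and a further 63 had more. Acta2, the smooth muscle actin, stood at 998 CPM in the members without Myh11, 281 in those with 1 UMI, 861 in the cells with 2 to 3 and 4248 in the cells with more. Rgs5 stood at 13074, 12109, 15530 and 14188 CPM in the same order. All of these cells had to pass the same Rgs5 limit.

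The place of the members was looked up in Leiden clusters of the whole WT library. These were built on genes among the 2000 most variable, without mitochondrial, ribosomal and haemoglobin genes. Gate genes were not left out, so the clusters are no independent check of the label. There, 64 of the 70 members fell into a single cluster of 134 cells led by Rgs5, H2-M9, Higd1b, Abcc9, Kcnj8, Art3, Notch3, Vtn, Gja4 and Nr2f2, which also held 26 cells of the smooth muscle gate. The other 6 lay singly in 6 clusters, led by cartilage collagens, Adipoq and Cxcl12, Car1, Bglap, Plvap, and Mup5. In 2 more members, 61.9% and 74.6% of UMIs came from blood cell markers, against at most 0.215% in any of the remaining 62. These 8 cells held 29.8% of the members' UMIs, so the main counts and the genes that these cells move most are given for the 62 cells as well. That subset was chosen after seeing the data, and since the clusters did not leave out the gate genes, its profile is a description only.

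Over all 70 cells, 12 of 16 endothelial markers were detected, and their sum stood at 525 CPM against 789 in empty droplets, with 0 to 3197 CPM in single cells. Of 15 endothelial markers measured against other stroma, 1 (Esam) was higher by the size rule given below, and 0 were lower, at a median log2 ratio of 2.28. Beside this, 5.29% of all genes were higher and 2.58% lower, so the count says little about the list. In the 62 cells 3 were higher, Esam, Tie1 and Eng, beside 7.18% of all genes. Pecam1 was found in 1 of 70 cells (1.43%) and in none of the 62, and Cdh5 was at 0 by the gate. Blood markers summed to a median of 645 CPM per cell and a highest of 746379 CPM, and Ptprc was at 0 by the gate. Chondrocyte markers summed to a median of 0 and a highest of 78020 CPM per cell. The part of these mixed cells in the results below was measured only by leaving them out.

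The genomic positions give the setting of the gate genes and of H2-M9, the gene with the highest ratio over other stroma below. In the GENCODE M21 annotation of mm10, Kcnj8 lies on chromosome 6 from 142564837 to 142571614 and Abcc9 from 142587862 to 142702315, both on the minus strand. The gap between these channel partners is 16247 bases and holds 0 protein-coding genes. Rgs5 lies on chromosome 1 from 169655501 to 169695813 (plus strand), Higd1b on chromosome 11 from 102835849 to 102838040 (plus strand), and H2-M9 on chromosome 17 from 36639285 to 36642666 (minus strand). Promoters from RefSeq (GRCm38.p6) are shown for the channel pair, which are neighbours in the genome, and for H2-M9. Each runs from 250 bases before the start to 20 bases in, 5′ to 3′ on the gene's strand. Capitals mark the letters TGGGAA or TTCCCA, the core bound by RBPJ, the DNA-binding partner of Notch receptors, since Notch3 is a marker of these cells.
H2-M9, chr17:36642644-36642913, minus strand: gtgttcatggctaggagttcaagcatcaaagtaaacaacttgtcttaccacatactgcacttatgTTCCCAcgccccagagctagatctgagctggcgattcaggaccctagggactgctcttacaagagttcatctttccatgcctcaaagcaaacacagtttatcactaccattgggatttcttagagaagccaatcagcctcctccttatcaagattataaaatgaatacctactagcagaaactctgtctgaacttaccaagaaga
Kcnj8, chr6:142571595-142571864, minus strand: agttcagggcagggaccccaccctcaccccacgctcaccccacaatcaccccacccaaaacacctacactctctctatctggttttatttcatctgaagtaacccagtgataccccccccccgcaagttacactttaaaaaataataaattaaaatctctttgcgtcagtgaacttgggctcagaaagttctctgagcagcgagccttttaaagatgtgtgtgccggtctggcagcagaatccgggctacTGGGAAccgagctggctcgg
Abcc9, chr6:142702255-142702524, minus strand: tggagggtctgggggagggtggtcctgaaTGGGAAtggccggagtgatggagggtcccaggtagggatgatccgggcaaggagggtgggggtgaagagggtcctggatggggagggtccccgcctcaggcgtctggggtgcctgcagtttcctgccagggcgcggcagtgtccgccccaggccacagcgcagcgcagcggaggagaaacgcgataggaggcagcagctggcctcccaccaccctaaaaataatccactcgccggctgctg
Each of the 3 promoters held 1 match, starting 185 bases before the start of H2-M9, at the start of Kcnj8 and 221 bases before the start of Abcc9. With both strands searched, the letters occurred in the promoters (300 bases) of 28.3% of the 27025 genes in the table, and of 5 of the 16 matched genes among the 20 ranked highest over other stroma. By promoter, the share was 25.6% of 32851. A match is a description and not a site.

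The gated pericytes were a smaller share of both transplanted libraries than of the WT library. Among non-blood cells (stroma, endothelial cells and the pericytes), they made up 1.26% in WT (70 of 5557, 95% interval 0.983 to 1.59), 0.150% in BMT (3 of 2000, 0.0309 to 0.438) and 0.153% in aGVHD (3 of 1966, 0.0315 to 0.445). The BMT share was 0.119 times that of WT (0.0375 to 0.378), and the aGVHD share was 0.121 times that of WT (0.0382 to 0.384). The BMT and aGVHD shares could not be told apart, with a ratio of 1.02 and an interval of 0.206 to 5.03. The WT share lies above both others by more than counting error, while the spread between mice was not measured.

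The denominator changed between libraries too. Endothelial cells made up 7.47% of non-blood cells in WT and 46.7% in aGVHD, and fibroblast-gated cells 49.9% and 8.90%. Set against stroma alone, the pericytes were 1.36% in WT, 0.239% in BMT (0.175 times WT, 0.0553 to 0.555) and 0.288% in aGVHD (0.211 times WT, 0.0666 to 0.669). Against mural cells, meaning the pericytes plus the smooth muscle gate (at least 3 UMIs of Myh11 and at least 10 of Acta2 and Tagln), they made up 13.8% of the WT, 3.26% of the BMT and 3.53% of the aGVHD cells. The ratio over WT was 0.237 for BMT (0.0763 to 0.737) and 0.257 for aGVHD (0.0827 to 0.796). Smooth muscle was itself 7.90% of non-blood cells in WT, 4.45% in BMT and 4.17% in aGVHD. The share of pericytes was thus smaller than in WT against each of these denominators.

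**Figure D1:**
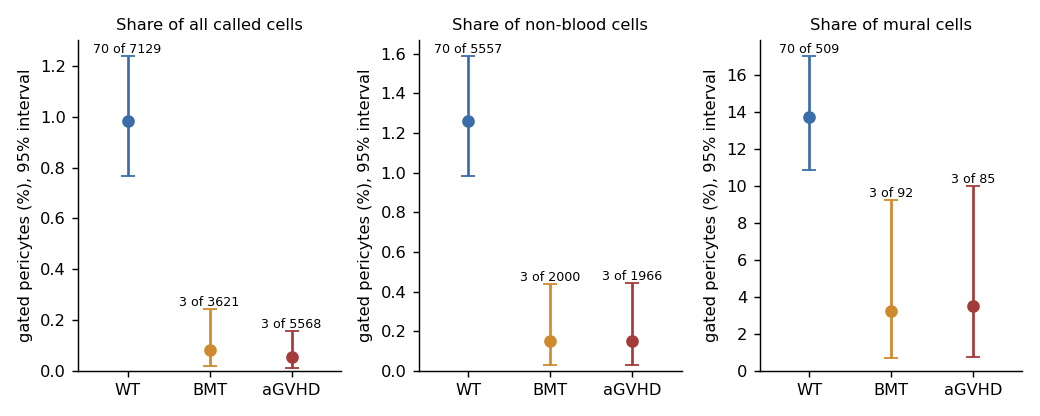
Share of gated pericytes in each library (y axis, percent) against 3 denominators, with exact 95% intervals of counting error; the numbers above each point are pericytes and cells in the denominator. The WT points sit at 0.982%, 1.26% and 13.8%, above the upper bounds of both other libraries in each panel.

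The cells next to the Myh11 limit were fewer in number in the transplanted libraries, which also held fewer non-blood cells (5557, 2000 and 1966). Cells with all other limits met and 2 to 3 Myh11 UMIs numbered 37 in WT, 2 in BMT and 2 in aGVHD. Those with more than 3 numbered 63, 13 and 28. As a share of non-blood cells, this last group was not smaller in aGVHD than in WT. Stroma of the BMT library had a median of 12884 UMIs a cell, deeper than the 7661 in WT and 6333 in aGVHD. With every cell thinned to 3000 UMIs, and shallower cells left out, the share of non-blood cells came to 1.40% for WT (71 cells), 0.226% for BMT (4 cells) and 0.0762% for aGVHD (1 cell). The cells left out as too shallow included 9 gated pericytes of WT, 0 of BMT and 2 of aGVHD. Cells lost in tissue digestion or sorting and cells lost in the mouse cannot be told apart in these data.

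In the WT library, the pericytes were then compared with 5064 other stroma cells. The size rule for a difference asked for 50 or more UMIs in the pair of groups, a ratio of at least 2, an interval excluding 1, and a higher side at least 2 times the empty droplets. Of 12953 genes measured, 685 were higher in the pericytes (5.29%) and 334 were lower (2.58%), with a median log2 ratio of 0.14. For the 62 cells, 929 of 12947 were higher (7.18%) and 350 lower (2.7%). The lists below were chosen with earlier results of these data known. Each list count is to be read beside the shares of all genes in its comparison.

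The gene with the highest ratio was H2-M9, a non-classical class I gene of the M region. It had 366 UMIs in 26 of 70 pericytes (725 CPM) and 194 UMIs in 28 of 5064 other stroma cells (3.96 CPM), a 183-fold difference (153 to 219). It stood at 18.0 CPM in smooth muscle, 0.127 in the LepR gate, 0.383 in the endothelial gate and 0 in blood. Of 11 other H2-M genes in the table, only 2, H2-M3 and H2-M11, had any UMI in the pericytes, 16 in all. How reads shared with near-identical class I genes were assigned is not stated in these sources, so the identity of H2-M9 reads is uncertain to that extent.

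Art3, a membrane-anchored ADP-ribosyltransferase-like protein, had a UMI in 72.9% of pericytes and 4.03% of other stroma cells. It stood at 313 CPM against 7.0 in other stroma, 44.7-fold (36.8 to 54.1). Art3 overlaps Cxcl10 and Cxcl11 on the opposite strand, and the use of strand in counting is not given in these sources. Vtn, the adhesion protein vitronectin, stood at 164 CPM against 4.49, 36.6-fold (28.1 to 47.3), and in 38 of 70 cells. Vtn had 0 UMIs in 415 endothelial cells. Cd300lg, a receptor known from capillary endothelium, stood at 107 CPM against 1.59, 67.2-fold (46.6 to 96.3). Cd300lg was at 185 CPM in the endothelial gate, where 50.6% of cells had it against 30% of the pericytes. Pecam1 was at 0 in the 62 cells, 20 of which had Cd300lg (15 with H2-M9 and 5 without).

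Other genes named by the ranking were Cyp4b1, a fatty acid hydroxylase (42.6-fold, also 122 CPM in endothelial cells), Prdm1, a transcriptional repressor (36.4-fold), and Ephx3, an epoxide hydrolase (32.1-fold). Dach1 (34.0-fold from 14 UMIs), the adaptor Stac (24.3-fold), Ifitm1 (16.2-fold), the small GTPase Rem1 (17.5-fold), Tusc5 (16-fold), Egflam (17.5-fold) and Rgs16 (14.3-fold) followed. Nr2f1 and Nr2f2, nuclear receptors of the COUP-TF pair, were 17.2-fold and 13.6-fold higher. Nr2f2 was found in 90.0% of pericytes and 21.0% of other stroma. Ranked by the near bound of their interval, these genes were all past the size rule in the 62 cells too.

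Of 28 further pericyte markers, 22 were higher than in other stroma and 0 lower, with a median log2 ratio of 2.61 against 0.14 over all genes and a background of 5.29%. The list was chosen with earlier results of these data known. Notch3, a receptor needed for mural cell maturation, stood at 816 CPM against 81.3 (10-fold) and in 98.6% of cells. Pdgfrb, the receptor by which endothelial cells recruit pericytes, stood at 769 CPM against 149 (5.16-fold). Gja4, a gap junction protein, was 14.8-fold higher and Gjc1 8.12-fold. Mcam was 9.84-fold, Steap4 9.07-fold and the intermediate filament gene Des 7.51-fold higher. Of the 6 that did not pass, Cspg4, which encodes NG2, stood at 107 CPM against 101 (ratio 1.05, 0.791 to 1.38), and Aspn at 799 against 738. Anpep and Cd248 had ratios of 0.616 and 0.476, and S1pr3 passed only in the 62 cells (ratio 2.12).

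**Figure D2:**
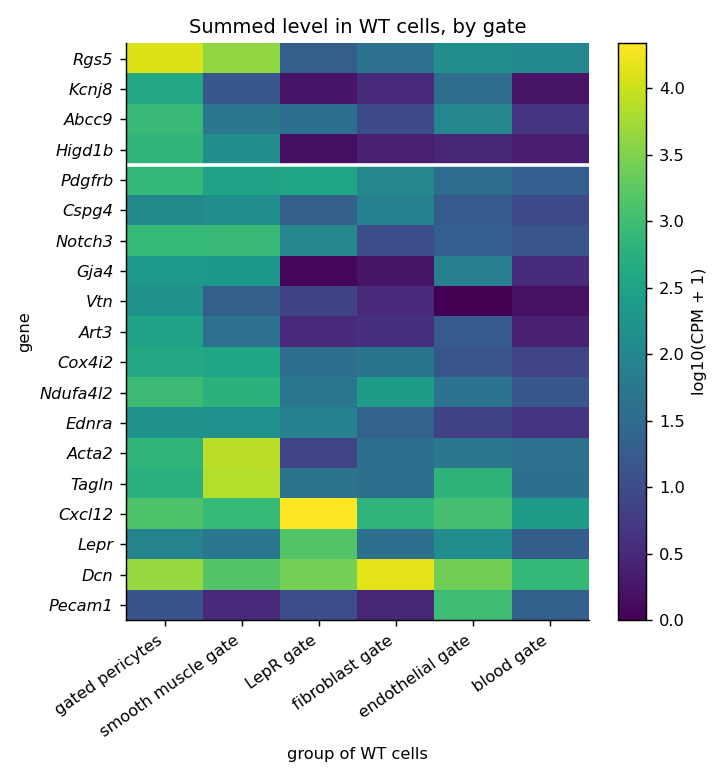
Summed level of 19 genes (rows) in 6 gates of the WT library (columns), as log10(CPM + 1); the 4 genes above the white line chose the pericytes. Notch3 and Gja4 are at like levels in the pericyte and smooth muscle columns, Vtn and Art3 are highest in the pericytes, Acta2 and Tagln in smooth muscle, and Cxcl12 in the LepR gate.

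Of 23 measured receptors and relays of vessel tone, 14 were higher and 1 lower, beside 5.29% and 2.58% of all genes. The median log2 ratio was 2.03. Agtr1a, the angiotensin II receptor, stood at 79.3 CPM against 4.14 (19.1-fold, 13.3 to 27.0). Ednrb and Ednra, both endothelin receptors, stood at 101 against 5.37 (18.8-fold) and at 170 against 37.9 (4.50-fold). Adra2a, an adrenergic receptor, was 12.4-fold and Npy1r, a neuropeptide Y receptor, 5.81-fold higher. Gucy1a3 and Gucy1b3, the subunits of the nitric oxide receptor guanylate cyclase, were 8.05-fold and 12.2-fold higher. Pde5a, which degrades cyclic GMP, was 4.07-fold and the cyclic GMP kinase gene Prkg1 4.61-fold higher. The cyclase, the kinase and the phosphodiesterase of this relay were thus all past the rule, while Lpar1 was the member that was lower.

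Of the ion handling list beyond the gate, 8 of 15 measured genes were higher and 1 lower (median log2 1.90). All genes stood at 5.29% higher and 2.58% lower. Trpc6, a cation channel gene, was 17.5-fold higher, and the potassium channel gene Kcnk3 11.9-fold. Slc12a2, a chloride importer, was 6.45-fold, the chloride channel gene Ano1 5.36-fold and the calcium channel gene Cacna1c 5.12-fold higher. Kcnma1 was lower, at 15.9 CPM against 37.4 (2.36-fold, or 4.42-fold in the 62 cells).

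In the matrix, basement membrane and fibrillar genes differed in opposite directions. Of 29 basement membrane genes and receptors, 11 were higher and 2 lower, beside 5.29% and 2.58% of all genes. The chains of collagen IV, Col4a1 and Col4a2, stood at 1427 CPM against 255 (5.6-fold) and at 947 against 164 (5.77-fold). The laminin chain gene Lama2 was 2.52-fold, Col18a1 6.93-fold and the integrin genes Itga7 and Itga1 9.02-fold and 4.90-fold higher, while Fn1 was 2.51-fold lower (4.07-fold in the 62 cells). Of 20 interstitial collagens and proteoglycans, 8 were lower and 1, Col5a3, was higher. Col1a1 stood at 2134 CPM against 9387 (4.40-fold lower, or 8.64-fold in the 62 cells), and Dcn at 4580 against 9685 (2.11-fold lower). A single cell held 73.7% of the Dcn UMIs. Without the 8 cells, Dcn stood at 1273 CPM, a ratio of 0.131. Col3a1 was close to other stroma, at 3301 against 4581 CPM (ratio 0.721).

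The ranking of lower genes was led by matrix genes. Thbs4, a thrombospondin, was 65.4-fold lower (28 to 201), Ibsp, a bone matrix protein, 26.4-fold and Fndc1 21.2-fold. Ogn, Clec3b and Sfrp4 were 15.2-fold, 14.6-fold and 14.1-fold lower. F13a1, Kera, Mfap4 and Flrt2 had 0 UMIs in the pericytes. Taking 3 UMIs over the group as the floor, they were 16.8-fold, 12.3-fold, 11.9-fold and 11-fold lower. The lower ends of their intervals were 13.6, 9.96, 9.69 and 8.93. In the 62 cells, Fndc1, Ogn and Sfrp4 were 39.7-fold, 25.6-fold and 69.4-fold lower, and Thbs4 and Ibsp had 2 and 3 UMIs left.

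In the respiratory chain, the pericytes carried alternative subunits. Ndufa4l2, a hypoxia-regulated relative of Ndufa4, stood at 929 CPM against 245 (3.8-fold) and Cox4i2, the hypoxia-linked form of Cox4i1, at 420 against 82.9 (5.07-fold). Their common forms were not higher: Cox4i1 stood at 682 against 635 CPM and Ndufa4 at 131 against 399. Ndufa4 stood at 470 CPM in empty droplets, so it could not pass the size rule, and in the 62 cells it was at 53.6 CPM. Epas1, a hypoxia-inducible factor, was 3.45-fold higher. In all, 4 of 19 measured members of this list were higher and 0 lower, beside 5.29% and 2.58% of all genes. Against smooth muscle, described below, 0 of 16 passed in either direction, beside 4.18% of all genes higher and 7.54% lower, so the count says little about the list.

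Of 34 measured transcription factors of mural and mesenchymal cells, 11 were higher and 3 lower, beside 5.29% and 2.58% of all genes. Foxs1 was 7.17-fold, the Notch target Heyl 3.81-fold, Ebf1 2.61-fold and Tbx18, a mural lineage factor, 2.69-fold higher. Hey1, another Notch target, was 4.47-fold and the Notch ligand gene Jag1 2.83-fold higher, among 6 of 18 measured genes of PDGF and Notch signalling. Fabp4, a fatty acid carrier, stood at 2210 CPM against 199 (11.1-fold). Empty droplets had 780 CPM of Fabp4, and it was among the leading genes of a WT cluster with the endothelial markers Stab2 and Cldn5. Of 24 niche factors, 5 were higher and 8 lower, beside the same shares of all genes. Il6 was 3.43-fold, Nes 7.02-fold and Il34 3.12-fold higher, and Cxcl12, the main retention signal for blood stem cells, was 2.97-fold lower, or a ratio of 0.0900 without the 8 cells. Kitl, the stem cell factor, stood at 325 CPM against 267 (ratio 1.22).

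Smooth muscle, the other mural class, had 439 cells and a median depth of 5497 UMIs against 5499 in the pericytes. The median mitochondrial share was 6.04% in smooth muscle, 5.27% in the pericytes and 3.43% in other stroma, and its part in the results was not tested. The smooth muscle gate used Acta2 and Tagln, which were left out. Of 7081 genes measured, 296 were higher in the pericytes (4.18%) and 534 lower (7.54%). For the 62 cells, 418 of 6937 were higher (6.03%) and 445 lower (6.41%).

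The contractile genes were lower. Of 27 measured, 23 were lower and 0 higher, beside 7.54% and 4.18% of all genes. Their median log2 ratio was -2.31 against -0.0036 over all genes. Since the gate caps Myh11 in the pericytes and asks for it in smooth muscle, genes that run with Myh11 were bound to differ. Pln, the calcium pump inhibitor phospholamban, had 0 UMIs in the pericytes against 409 CPM, 68.8-fold lower with the floor of 3 UMIs. Rbm24, an RNA-binding splicing factor, was at 0 against 218 CPM (36.7-fold with the same floor). The lower ends of these 2 intervals were 55.9 and 29.7. Itga8 and Olfr78 were at 0 as well. Map3k7cl had 1 UMI against 639 and Nrip2 5 against 1229. Sorbs2, which anchors actin fibres, was 24.2-fold lower, or 40.9-fold in the 62 cells. Myocd, the master regulator of the contractile program, was at 0 against 63.9 CPM. Acta2 itself was at 690 CPM against 7796, and 47.1% of pericytes had a UMI of it.

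Many pericyte markers did not separate the cells from smooth muscle: 7 of 27 were higher and 2, Parm1 and S1pr3, were lower. Beside this, 4.18% of all genes were higher and 7.54% lower, so the count of lower markers is near that of all genes. S1pr3 missed the rule in the 62 cells. Notch3 stood at 816 against 830 CPM (ratio 0.984, 0.884 to 1.09) and Gja4 at 224 against 205 (1.09, 0.887 to 1.34). Among those that were higher were Art3 (7.64-fold), Vtn (8.51-fold), Steap4 (7.62-fold), Pdgfrb (2.44-fold), Ebf1 and Nr2f2. Gucy1a3 and Gucy1b3 had ratios of 0.763 (0.629 to 0.920) and 1.03 (0.830 to 1.27). Of 15 vasoactive genes, 4 were higher, 4 lower and 7 neither, at a median log2 ratio of 0.0040. Agtr1a was 6.05-fold and Adra2a 6.27-fold higher, and Npy1r was 2.46-fold lower, a ratio of 0.508 in the 62 cells, where it missed the rule.

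The genes with the highest ratios over smooth muscle were H2-M9 (40.2-fold, 30.2 to 54.4), Cd300lg (25.1-fold), Npy (22.5-fold), Ifitm1 (18.4-fold) and Vcan (17.2-fold). A single cell of 42935 UMIs, 8.51% of the members' total, held all 93 UMIs of Npy and 82 of the 97 of Vcan. Without the 8 cells their log2 ratios were 0.047 and 1.34, and neither passed. Adgrf5, an adhesion receptor (12.4-fold), Tnfrsf21 (11.6-fold) and Nr1h3, an oxysterol receptor (14.2-fold), were spread over 64.3%, 61.4% and 34.3% of the pericytes. Basement membrane genes were again on the higher side, with 8 of 25 higher and 4 lower, beside 4.18% and 7.54% of all genes. Col4a1 was 3.36-fold, Col4a2 3.23-fold and Lama2 7.35-fold higher, while Lama5, Lamb2, Bcam and Col4a5 were lower. Slc12a2 was 5.33-fold higher.

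**Figure D3:**
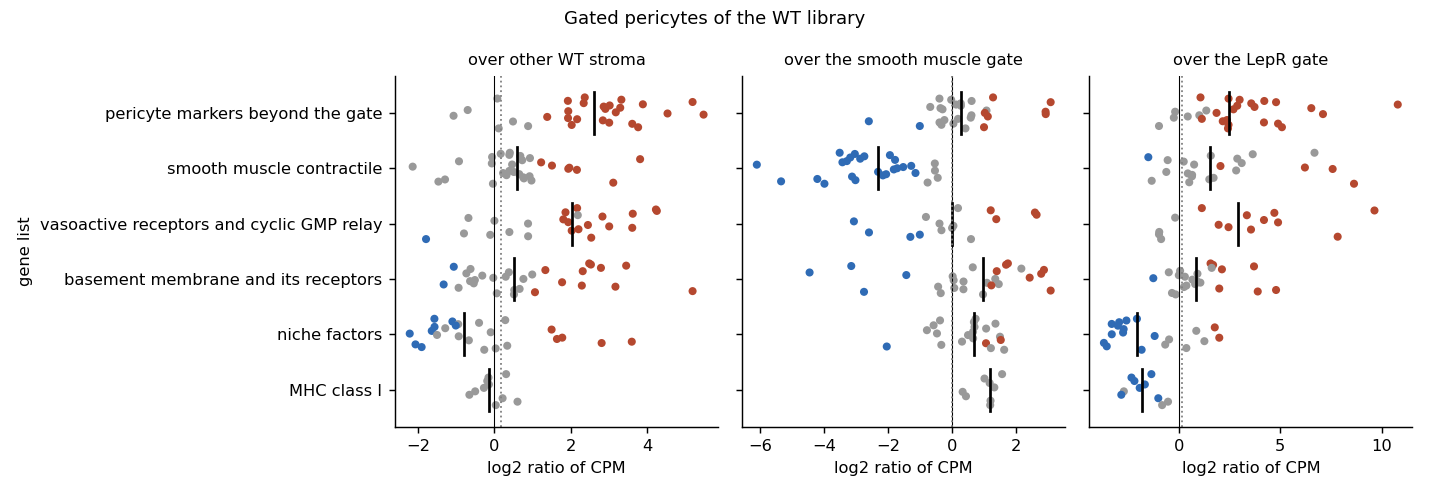
Log2 ratio of CPM in the gated WT pericytes over other stroma, smooth muscle and the LepR gate (x axes) for the measured genes of 6 lists (rows); red points are higher and blue points lower by the size rule, black bars are list medians and the dotted line is the median of all genes. Pericyte markers have medians of 2.61, 0.28 and 2.45, and contractile genes have 0.58, -2.31 and 1.53.

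Against 1068 cells of the LepR gate (at least 20 UMIs of Cxcl12, at least 3 of Lepr and Adipoq, which were left out), 430 of 9592 genes were higher (4.48%) and 553 lower (5.77%). For the 62 cells, 597 of 9538 were higher (6.26%) and 499 lower (5.23%). Vascular receptors and junction genes had few UMIs in the LepR cells. Gja4 had 113 UMIs in the pericytes and 1 in the LepR cells, Ednrb 51 and 1, and Npy1r 58 and 4. Olfr558, an odorant receptor, had 76 UMIs against 0, 396-fold higher with a floor of 3 UMIs (lower end of the interval 315). Esam, an adhesion protein shared with endothelium, was 192-fold higher (93.6 to 456). Sncg was 191-fold and Art3 137-fold higher. H2-M9 had 366 UMIs against 1. Of 14 vasoactive genes 10 were higher and 0 lower, and of 27 pericyte markers 21 were higher and 0 lower.

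Niche factors were mostly higher in the LepR cells. Of 19 niche factors, 12 were lower in the pericytes and 2, Il6 and Jag1, were higher, beside 5.77% and 4.48% of all genes. Kitl stood at 325 against 1365 CPM (4.20-fold lower), Vcam1 at 202 against 2009 (9.94-fold lower) and Angpt1, a vessel-stabilising ligand, was 8.06-fold lower. Ibsp was 45.8-fold, Esm1 28.4-fold and Hp 18.2-fold lower, with Mmp13, Kng2 and Ogn also named by the ranking at 37.5-fold, 27.9-fold and 22.9-fold. Wisp2 and Phex rested on 3 UMIs each in the pericytes, at 53.3-fold (18.2 to 259) and 39.6-fold lower (13.5 to 192). The 8 mixed cells held most of these UMIs: in the 62 cells Esm1, Mmp13 and Kng2 were at 0, Hp, Wisp2 and Phex had 1 UMI each and Ibsp 3, and Ogn and Angpt1 were 38.6-fold and 22.6-fold lower. Class I genes were lower as well, 7 of 10 at a median log2 ratio of -1.81, with H2-K1 at 559 against 2828 CPM and B2m at 1060 against 2717. Of 24 interferon genes 9 were lower, led by Cxcl9, beside the same 5.77% of all genes. Against other stroma as a whole, 0 of 10 class I genes passed in either direction, at a median log2 ratio of -0.149. Beside this, 5.29% of all genes were higher and 2.58% lower. Class I genes summed to 3264 CPM in the pericytes and 2854 in empty droplets. The limit of 2 times the empty droplets was thus hard to meet, and the count says little about the list. Of 22 contractile genes measured against the LepR gate, 4 were higher and 1, Tpm1, was lower. The shares of all genes there were 4.48% and 5.77%, so the 1 lower gene is near background. Without the 8 cells, 12 were higher and 1 lower, beside 6.26% and 5.23% of all genes.

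The 70 WT cells also varied among themselves. For each of 599 genes with at least 100 UMIs, the variance was divided by that expected from cell depth, and the 10 highest were Prg4, Col2a1, Dcn, Col1a1, Bglap, Spp1, Cytl1, Malat1, Col1a2 and Ppa1. For many of them a single cell held much of the UMIs: 91.2% of Col2a1, 94.7% of Ppa1 and 88.7% of Spp1 UMIs came from 1 cell each. Prg4, Bglap, Col1a1 and Dcn had 56.9% to 73.7% in their highest cell. Cytl1, Col1a2 and Malat1 were less concentrated, at 44.7%, 40.3% and 10.1%. In the 62 cells, 5 of the 10 stayed among the 10 highest. Timp3, Acta2 and H2-M9 then lay among the 20 highest, with 7.44%, 25.1% and 18.4% of their UMIs in the highest cell, and so did Fabp4.

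H2-M9 was unevenly spread over the cells. Of the 62 cells, 22 had it, at 1 to 65 UMIs with a median of 14, and 40 had none, and all 22 were among the 53 cells with at least 3000 UMIs. Median depths were 5461 UMIs with and 4655 without. The split was made after seeing the data, so what follows is a description. Of 1092 genes measured, 13 were higher in the cells with H2-M9 (1.19%) and 46 were lower (4.21%).

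Cells with H2-M9 carried Fabp4 in 22 of 22 cells at 4372 CPM, against 905 CPM in the cells without it, where 57.5% had a UMI (4.83-fold, 4.10 to 5.70). Cd300lg stood at 310 against 41.2 CPM (7.52-fold), in 15 of 22 and 5 of 40 cells. Igf1, a growth factor, was found in 90.9% and 22.5% of cells, the heparan sulfate proteoglycan gene Gpc6 in 90.9% and 32.5%, and Olfml2a in 95.5% and 47.5%. Aspn, Nr2f1 and Id1 were 2.22-fold, 2.97-fold and 2.56-fold higher. Angptl7, Spp1 and Fibin passed too, but 1 cell held 97.7% or more of their UMIs.

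Cells without H2-M9 carried Timp3, an inhibitor of matrix proteases, at 6461 CPM against 973 (6.64-fold, 5.55 to 8.0). Syn3, which overlaps Timp3 on the opposite strand, was 3.95-fold higher with it. Vtn was found in 29 of 40 cells without and 7 of 22 cells with H2-M9, Ednrb in 17 of 40 and 1 of 22, Cyp4b1 in 17 of 40 and 1 of 22, and Npy1r in 60.0% and 4.55%. Cyp26b1, which degrades retinoic acid, was 8.22-fold, Rgs16 6.13-fold, Sparcl1 3.66-fold and Col18a1 4.70-fold higher. Il6 and the chemokine gene Cxcl1 were 12.3-fold and 5.25-fold higher, in 35% and 47.5% of these cells. Art3 was in both groups, 21 of 22 and 23 of 40. Some genes with high ratios over other stroma thus fell on either side of the split: Cd300lg was found more often with H2-M9, and Vtn, Ednrb and Cyp4b1 more often without it. Gja4, Ifitm1 and Art3 did not pass the size rule, at ratios of 0.806, 0.700 and 1.97 with over without H2-M9. Cyp4b1, Ephx3, Agtr1a, Prdm1 and Dach1 were under the minimum of 50 UMIs.

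**Figure D4:**
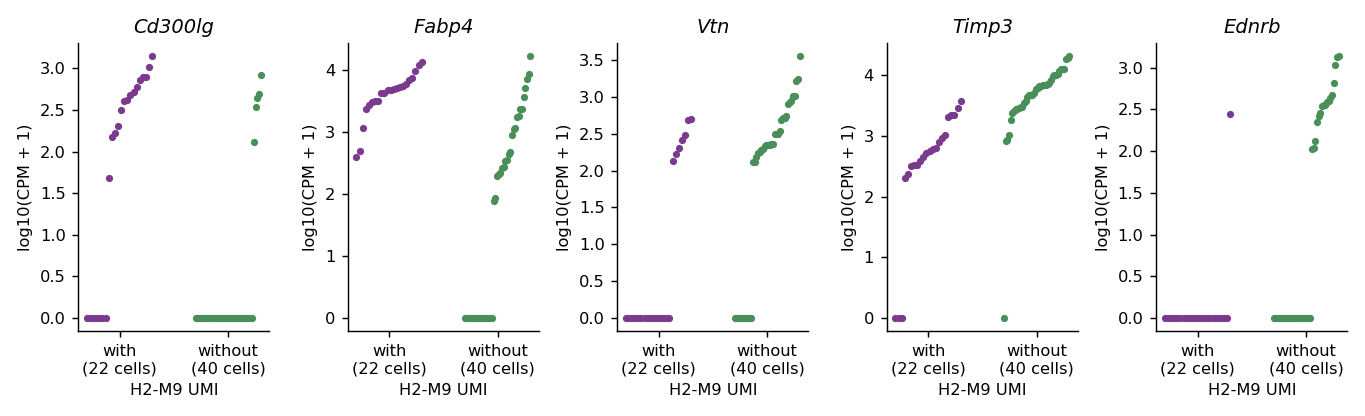
Level per cell, as log10(CPM + 1), of 5 genes in the 62 WT pericytes, split into the 22 with and the 40 without a UMI of H2-M9; points are cells sorted by value, and a value of 0 is a cell without a UMI. Cd300lg was detected in 15 of 22 and 5 of 40 cells, Vtn in 7 of 22 and 29 of 40, and Ednrb in 1 of 22 and 17 of 40.

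The 3 BMT and 3 aGVHD pericytes were too few for a comparison across genes, for which at least 20 cells were asked. The BMT cells had 6220, 12970 and 11925 UMIs and carried 146, 5 and 88 UMIs of Rgs5. The cell with 5 had 0 UMIs of Kcnj8 and Higd1b, 4 of Abcc9 and 101 of Col4a1. The aGVHD cells had 9421, 2179 and 1386 UMIs and 49, 54 and 10 of Rgs5. Notch3 was found in all 6 cells, and Pdgfrb in 5. The summed pericyte markers stood at 9352 CPM in BMT and 12167 in aGVHD, against 9381 in WT (11952 in the 62 cells). The smooth muscle gates of BMT, aGVHD and WT had 7456, 7206 and 6758 CPM, so this sum says little by itself. Summed LepR markers were 1.87 times WT in the BMT cells (1.64 to 2.13) and 0.423 times in aGVHD (0.273 to 0.626). These ratios depend on the mixed WT cells: the WT sum was 4552 CPM with them and 2579 in the 62 cells. The BMT sum of 8517 CPM (7522 to 9606) lay above both WT values. The aGVHD sum was 1925 CPM, and its interval of 1246 to 2842 included the value of the 62 cells. A lower level in aGVHD was thus not seen against the 62 cells. All 78 UMIs of Igfbp5 and all 32 of Hp in the BMT pericytes lay in 1 cell each. Cluster membership was not looked up for these 6 cells. H2-M9 was found in 1 of the 3 cells in each library, at 12 and 1 UMIs.

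The summed interferon response genes stood higher in each BMT cell than in any WT cell. The sum was 6939, 9325 and 10063 CPM in the BMT cells and 5520, 1377 and 3608 in the aGVHD cells. In the 70 WT cells it ran from 0 to 4764 with a median of 567. Of these 70, 0 lay above the lowest BMT cell and 8 above the lowest aGVHD cell. The summed ratio of BMT over WT was 12.5 (10.6 to 14.6). Iigp1, an interferon-induced GTPase, and the chemokine gene Cxcl9 gave 67 and 69 of the 268 BMT UMIs, while 7 of the 30 genes, Isg15, Ifit1 and Mx1 among them, had 0. In smooth muscle the sum was 537 CPM in WT, 1814 in BMT and 3565 in aGVHD. Empty droplets differed in the same direction, at 745 CPM in WT, 5371 in BMT and 4737 in aGVHD. All 3 BMT cells lay above the empty droplets of their library, and 2 of the 3 aGVHD cells lay below theirs. Class I genes summed to 3264 CPM in WT, 14109 in BMT and 12783 in aGVHD, again beside 2854, 13432 and 9186 in the empty droplets. Single cells ran from 4662 to 19815 CPM in BMT, from 4329 to 15179 in aGVHD and from 333 to 9672 in WT. For class I, 13 of the 70 WT cells lay above the lowest BMT cell and 16 above the lowest aGVHD cell, so the libraries overlapped. An estimate from blood cell genes put free RNA at 0.496% of UMIs in the BMT pericytes and 0.576% in the aGVHD pericytes. The part of free RNA in these sums was not tested.

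**Figure D5:**
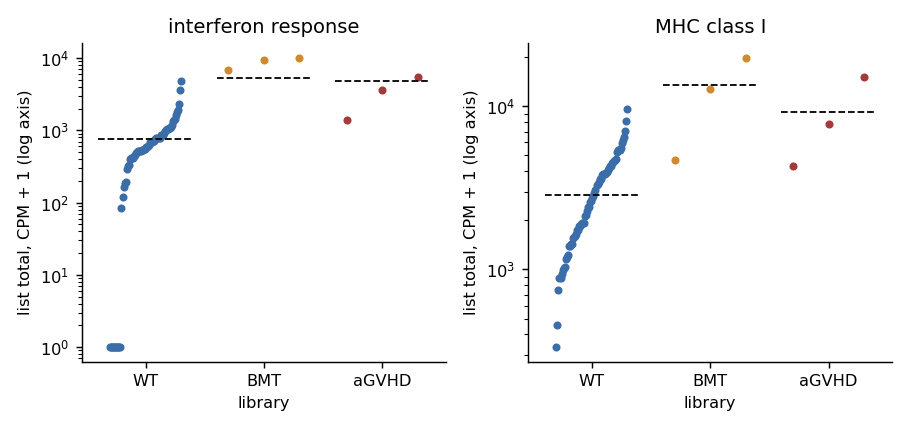
Summed CPM + 1 (log axis) of 30 interferon response genes and 10 class I genes in each gated pericyte (points, sorted by value within a library), with the level in empty droplets of the same library as a dashed line. The 3 BMT cells have 6939 to 10063 CPM of interferon genes and lie above their dashed line and above all 70 WT cells.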

How the data were processed

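Cell Ranger, Seurat and the mm10 build are named in the submitters' processing notes. The deposited matrices hold raw counts of UMIs per gene and barcode, written by Cell Ranger 3.1.0 per the file headers. They list 27998 genes and 6794880 barcodes, empty droplets included, so cells were called here with the limits in the text. Samples were grouped by the treatment in the labels. The cells, gene lists and comparisons were chosen with earlier results of these data known.

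UMIs were summed per gate and expressed as CPM in Python 3.11.15 with scipy 1.17.1. Other stroma were non-members without Ptprc and Cdh5 and with at least 0.5% of UMIs in 12 stromal genes. Named genes were the 20 higher and 10 lower against other stroma, and the 8 higher and 8 lower against smooth muscle and LepR cells, ranked by the interval bound nearest to 1, without ribosomal, mitochondrial, haemoglobin and unnamed genes and without the genes of the gates. Members of the 25 lists may be named as well. Some genes that meet this rule are not reported here. Clusters used scanpy 1.11.5 and leidenalg 0.10.2. Likely doublets (top Scrublet scores, assuming 0.8% for every 1000 called cells) were kept in, and their removal (407, 105 and 248 cells, 7, 1 and 1 of them pericytes) was an alternative. Code was tested on simulated data. Alternatives covered the gate limits, depth, scaling, free RNA and count minimum.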

Additional observations from a re-analysis of the deposited data

How the results depend on the processing

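No paired analysis was possible because each group has 1 library. Limits: depth and 3 cells in each transplanted library bound what can be said of BMT and aGVHD, and pericytes were not compared across all genes between libraries: only fixed lists and their genes were summed there. The ratio of BMT or aGVHD over WT stayed below 1 and inside its interval under 10 other settings of the gate, the cell limits, doublet removal and thinning, at 0.0829 to 0.185 for BMT and 0.0544 to 0.252 for aGVHD. The WT share of non-blood cells moved outside its interval to 0.810% with Myh11 at 0, to 1.93% with Myh11 up to 3, and to 0.664% with a mitochondrial limit of 5%, which left 30 pericytes. Without the 8 mixed cells, an alternative added after seeing the data, it was 1.12%.

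With free RNA subtracted, 372 genes were higher than in other stroma in place of 685, and 355 lower than in smooth muscle in place of 534. The free RNA estimate was 28.5% for the 70 pericytes and 0.375% for the 62, so it rests on the mixed cells. With each cell given equal weight, 534 genes in place of 334 were lower than in other stroma. A minimum of 100 UMIs left 154 genes higher than in smooth muscle and 284 higher than in LepR cells, since fewer genes were tested. Of the named genes, Npy against smooth muscle reversed to a log2 ratio of -0.32 with at least 10 Rgs5 UMIs, which leaves out the cell that held it. Dach1, Cd300lg against smooth muscle, Nr1h3, and Olfr558, Ednrb and Npy1r against LepR cells were no longer called at a minimum of 100 UMIs, which leaves them untested. With free RNA subtracted, Dach1, Stac and Flrt2 were not called against other stroma, and with likely doublets removed, neither were Dach1 there nor Npy, Vcan and Nr1h3 against smooth muscle. Without the 8 cells, 5 of the 10 most variable genes were shared.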
